A study of Mus musculus with 2 samples.

Results

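The genes described here encode the pore-forming and accessory subunits of voltage-gated sodium channels (Scn), voltage-gated calcium channels (Cacna, Cacnb and Cacng) and the pacemaker channels opened by hyperpolarization and cyclic nucleotides (Hcn). The rule takes genes by symbol and reads no levels. It found 42 genes among the 29809 genes of the series. All 42 were rows of the wild-type table, and 39 were rows of the other; Cacng1, Cacng6 and Scn4a had no row there. The data are single-cell gene counts made by Drop-seq, in which each cell is captured in a droplet with a barcoded bead and each captured transcript is counted once, by its unique molecular identifier (UMI), near its 3′ end. Live cells were sorted from arcuate nucleus and median eminence tissue, microdissected from the hypothalamus of CD-1 mice aged 7 to 8 weeks. One library pooled 7 mice of the genotype Wildtype. The other pooled 5 mice of the genotype Irx3/5+/-, with 1 copy of Irx3 and of Irx5, and is called the double heterozygote. No treatment is given in the labels. With 1 pooled library per genotype, the mice of a pool cannot be told apart, no difference has a replicate check and no p-value is given; intervals are 95% intervals that cover counting error only.

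Sodium channel alpha subunits form the pore that carries the upstroke of the action potential, and their beta subunits set its gating and its place in the membrane. Calcium channel alpha1 subunits form the calcium pore. The alpha2delta and beta subunits bring that pore to the membrane, and several gamma subunits, the TARPs, act mainly as partners of AMPA glutamate receptors. Pacemaker channels pass an inward current near rest and shape rhythmic firing. The arcuate nucleus holds neurons that control feeding, growth and reproduction, and tanycytes are the elongated glia that line the floor of the third ventricle beside it.

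After cells with fewer than 300 genes or more than 20% mitochondrial UMIs were removed, 2405 wild-type and 1484 double heterozygote cells remained, with a median of 1274 and 1160.5 UMIs per cell and 4282490 and 2862026 UMIs in all. Of the barcodes, 3 occurred in both libraries. Irx3 had 31 and 15 UMIs (7.24 and 5.24 UMIs per 1000000 UMIs, CPM) and Irx5 16 and 6 UMIs (3.74 and 2.10 CPM) in the wild-type and double heterozygote libraries. Both values were lower in the latter, but they rest on few UMIs and no interval was computed for them. The cells fell into 22 clusters, made without the channel genes and named by marker genes. They gave 828 and 706 neuron-like cells, 395 and 178 tanycyte-like, 134 and 65 ependymal-like, 255 and 78 oligodendrocyte precursor-like, 264 and 126 oligodendrocyte-like, 104 and 45 microglia-like, 155 and 123 fibroblast-like, 74 and 58 mural-like and 90 and 44 pars tuberalis-like cells. Only 20 and 13 astrocyte-like and 40 and 13 endothelial-like cells were found, so a channel gene at 0 there is poorly bounded. Classes are called by these names without "like" from here on. In all pairs of values, the wild-type value comes first. Levels are the gene's summed UMIs per 1000000 summed UMIs of the class. They are counted at 3′ ends and not divided by gene length, so levels are compared between cells and not between genes.

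Of the 42 genes, 35 had at least 30 UMIs and enter the counts that follow. Hcn4, with 32 UMIs, and Cacna2d4, with 31, lay just inside that limit. Those below it included Cacna1i (9 UMIs), Scn11a (8), Scn4a (6), Scn4b (6), Cacng6 (2) and Cacng1 (1). Scn4a, the sodium channel of skeletal muscle, had 4 of its 6 UMIs in ependymal cells of the wild-type library.

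Most of the 35 genes were highest in neurons, and 5 had their highest level by far in 1 class of glial or ependymal cells: Scn7a, Cacng4, Hcn2, Cacna2d4 and Cacna1s. In both libraries, 23 of the 35 were at least 2-fold higher in neurons than in all other cells, against 12.1% of all genes with that many UMIs. Scn7a, Cacna1s, Hcn2 and Cacna2d4, 4 of the 35, were at least 2-fold lower in neurons in both libraries, against 18.8% of all genes. The remaining 8 (Scn8a, Cacna1c, Cacna1d, Cacna1g, Cacnb4, Cacng4, Cacng7 and Cacng8) passed neither limit in both libraries. Summed over the family, neurons held 1761 and 1616 CPM, oligodendrocyte precursors 1875 and 1502 CPM, and tanycytes 946 and 1655 CPM. Microglia held 232 and 164 CPM and endothelial cells 109 and 87.1 CPM, the latter from 4 and 1 UMIs. In the wild-type library, oligodendrocyte precursors (1737 to 2022) were the 1 non-neuronal class with a value at or above that of neurons (1702 to 1821). In the double heterozygote library tanycytes were (1494 to 1829, against 1560 to 1674 in neurons). The intervals overlapped in both libraries. Cacng4 alone gave 387 of the 677 UMIs of the wild-type precursors, and Scn7a 251 of the 386 UMIs of the double heterozygote tanycytes.

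**Figure D1:**
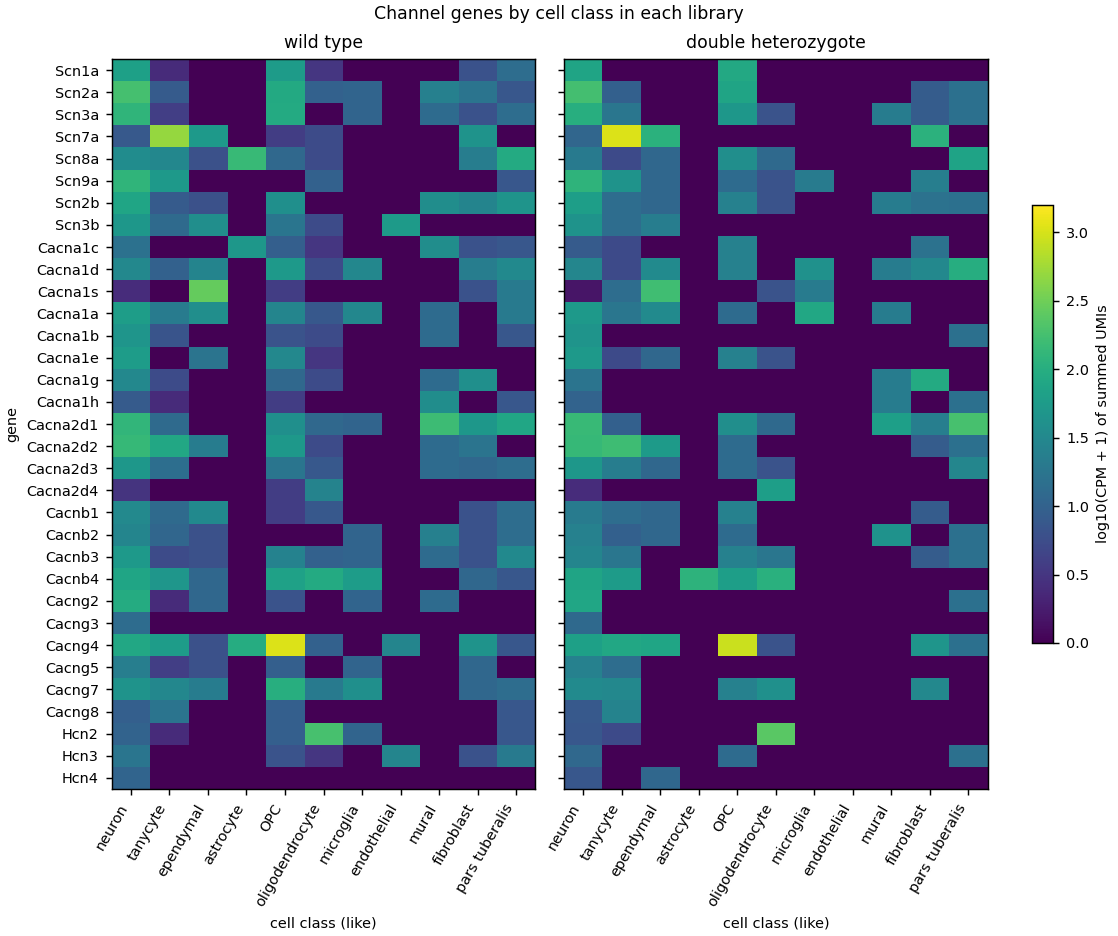
Level of 33 of the 35 genes (rows) in 11 cell classes (columns, OPC for oligodendrocyte precursors) in the wild-type (left) and double heterozygote (right) library; colour is log10(CPM + 1) of summed UMIs. The neuron column is filled nearly throughout, while the brightest cells are Scn7a in tanycytes and Cacng4 in oligodendrocyte precursors, in both libraries.

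Scn7a, which encodes the channel-like protein Nax that is known from sodium sensing in glia of the ventricle wall, was the family's tanycyte gene. Tanycytes held 342 and 251 of its 376 and 296 UMIs, 88.2% over both libraries, at 500 and 1076 CPM. At least 10-fold enrichment over all other cells in both libraries was met in tanycytes by Scn7a, 1 of 35, against 0.435% of all genes. Its UMIs were not spread over the tanycytes. Of the clusters that make up this class, cluster 11, led by Mest, Col25a1 and the thyroid hormone deiodinase Dio2, held 333 UMIs in 88 cells and 248 UMIs in 52 cells. Cluster 1, led by Crym, Frzb and Rax, held 9 UMIs in 307 cells and 3 UMIs in 126 cells. A UMI of Scn7a was found in 80.7% and 84.6% of cluster 11 cells and in 2.61% and 0.794% of cluster 1 cells. Outside tanycytes, ependymal cells had 10 and 10 UMIs (53.1 and 109 CPM), fibroblasts 8 and 15 (43.3 and 113 CPM), and neurons 13 and 20 (6.72 and 10.5 CPM).

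Scn7a was also higher in the double heterozygote tanycytes. Over the whole class the ratio to wild type was 2.15 (log2 1.11, interval 0.87 to 1.35). Cluster 11 made up 88 of 395 and 52 of 178 tanycytes, and within it the levels were 1570 and 2762 CPM, a ratio of 1.76 (1.49 to 2.08). The cell with the most Scn7a held 20 UMIs in 1 library and 22 in the other. The summed tanycyte markers of cluster 11 were at 3815 and 3987 CPM, with 9 of 10 detected in each library, and the summed fibroblast markers were at 538 and 290 CPM. Its summed neuron markers were at 3957 and 3786 CPM, against 2060 and 1974 CPM in cluster 1; their part in the channel values of these clusters was not tested. Cacng8, a gamma subunit, was the other gene whose highest class was tanycytes, with 11 and 6 of its 31 and 19 UMIs there. Among genes with most of their UMIs in neurons, Cacna2d2, an alpha2delta subunit, followed the same split as Scn7a. It was at 222 and 345 CPM in cluster 11 against 19.1 and 41.8 CPM in cluster 1. Its level over all tanycytes was 81.9 and 159 CPM (log2 0.96, 0.32 to 1.58). Cacnb4, a beta subunit, was at 118 and 100 CPM in cluster 11 and 14.8 and 27.9 CPM in cluster 1. Scn9a had 36 and 10 UMIs in tanycytes, on both sides of this split, with 66.0 and 78.0 CPM in cluster 11 and 46.6 and 20.9 CPM in cluster 1. The tanycyte clusters thus differed in a sodium channel-like gene and 2 calcium channel accessory genes, while the alpha1 pore with the most UMIs there, Cacna1a, had only 14 and 4.

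Cacng4, a TARP, was the gene of oligodendrocyte precursors. They held 387 and 71 of its 603 and 230 UMIs, at 1072 and 867 CPM, 19.5-fold (16.4 to 23.1) and 15.2-fold (11.3 to 20.2) the level of all other cells. It was the 1 of 35 genes at least 10-fold higher there in both libraries, against 0.831% of all genes. A UMI was present in 63.1% and 41.0% of the precursors. For thinned shares, here and below, cells with fewer UMIs than the thinned depth were left out and the others were thinned to it. At 1000 UMIs this left 152 of 255 and 24 of 78 precursors, with shares of 61.8% and 58.3%. These are other sets of cells, and 24 cells are too few to show whether the gap between the libraries holds at equal depth. Oligodendrocytes, thinned alike, gave 1 of 165 and 0 of 80 cells. Beside 0 of 80, the share that 3 cells would give is 3.75%, which is not an interval limit. Cluster 2, the precursors led by Lhfpl3, C1ql1 and Pdgfra, had 1253 and 953 CPM of Cacng4, and cluster 18, led by the committed precursor genes Gpr17, Enpp6 and Bcas1, had 412 and 396 CPM. Mature oligodendrocytes had 4 and 1 UMIs. Neurons had 82.7 and 65.6 CPM and tanycytes 57.0 and 81.5 CPM.

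The precursors also held pore genes of neurons. Scn2a was at 85.9 and 73.2 CPM, Scn3a at 88.6 and 48.8 CPM and Scn1a at 55.4 and 85.5 CPM, from 31 and 6, 32 and 4, and 20 and 7 UMIs. Scn9a, the sodium channel known from sensory neurons and present in hypothalamic neurons, was by contrast at 0 and 1 UMIs there, while it stood at 124 and 119 CPM in neurons. Cacng7, another TARP, had 36 and 2 UMIs in precursors (99.7 and 24.4 CPM, log2 -2.03, -5.13 to -0.07), against 42.9 and 33.1 CPM in neurons. Cacna1d, an L-type pore, had 19 and 2 UMIs and Cacnb4 24 and 5. The double heterozygote precursors were few and shallow, with 78 cells and a median of 719 UMIs. Their summed pars tuberalis markers were at 6873 CPM against 191 CPM in wild type; the part of this in the channel values was not tested.

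Hcn2, a pacemaker channel often described from thalamic and cardiac rhythm, was found mostly in oligodendrocytes. They held 85 and 43 of its 110 and 56 UMIs, at 186 and 242 CPM, 28.5-fold (18.1 to 46.5) and 50.01-fold (26.4 to 101) above all other cells. Neurons had 18 and 12 UMIs, or 9.31 and 6.30 CPM. Hcn2 and Cacna2d4 were the 2 of 35 genes at least 10-fold higher in oligodendrocytes in both libraries, against 1.23% of all genes. Thinned to 1000 UMIs, 14.5% of 165 and 22.5% of 80 oligodendrocytes had a UMI of Hcn2, against 0.768% of 521 and 0.421% of 475 neurons; without thinning the oligodendrocyte shares were 22.3% and 23.8%. Both oligodendrocyte clusters held it, at 162 and 258 CPM in cluster 5, led by Mobp, Ermn and Mog, and 289 and 184 CPM in cluster 9, led by Ptgds and Car2. The 3′ end of Hcn2 lies 15 bp from the end of Polrmt, a gene on the other strand, and the labels do not say whether the counting used strand. Polrmt was at 8.77 and 5.63 CPM in oligodendrocytes and 7.76 and 7.87 CPM in neurons; its part in the Hcn2 values was not tested. Cacna2d4, an alpha2delta subunit best known from photoreceptors, had 12 and 11 of its 17 and 14 UMIs in oligodendrocytes (26.3 and 61.9 CPM). Cacnb4 was also present there, at 89.9 and 107 CPM, beside 74.5 and 72.4 CPM in neurons.

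Cacna1s, the L-type pore of skeletal muscle, was an ependymal gene in these cells. Ependymal cells held 52 of 60 and 15 of 21 UMIs, at 276 and 163 CPM, 141-fold (66.6 to 344) and 75.2-fold (27.6 to 237) above all other cells. Neurons had 3 and 1 UMIs. It was the 1 of 35 genes at least 10-fold higher in ependymal cells in both libraries, against 2.15% of all genes. A UMI was found in 21.6% and 15.4% of ependymal cells. The lower value in the double heterozygote was not told apart from equality (log2 -0.76, -1.70 to 0.09). Gm37014, on the same strand, and Gm37759, on the other strand, overlap Cacna1s, and their part in its values was not tested. Kif21b, the nearest coding gene to the 3′ end of Cacna1s, lies 11567 bp away and had 1 UMI in wild-type ependymal cells. The ciliated-cell markers of the class were at nearly the same summed level in both libraries (17249 and 18823 CPM).

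**Figure D2:**
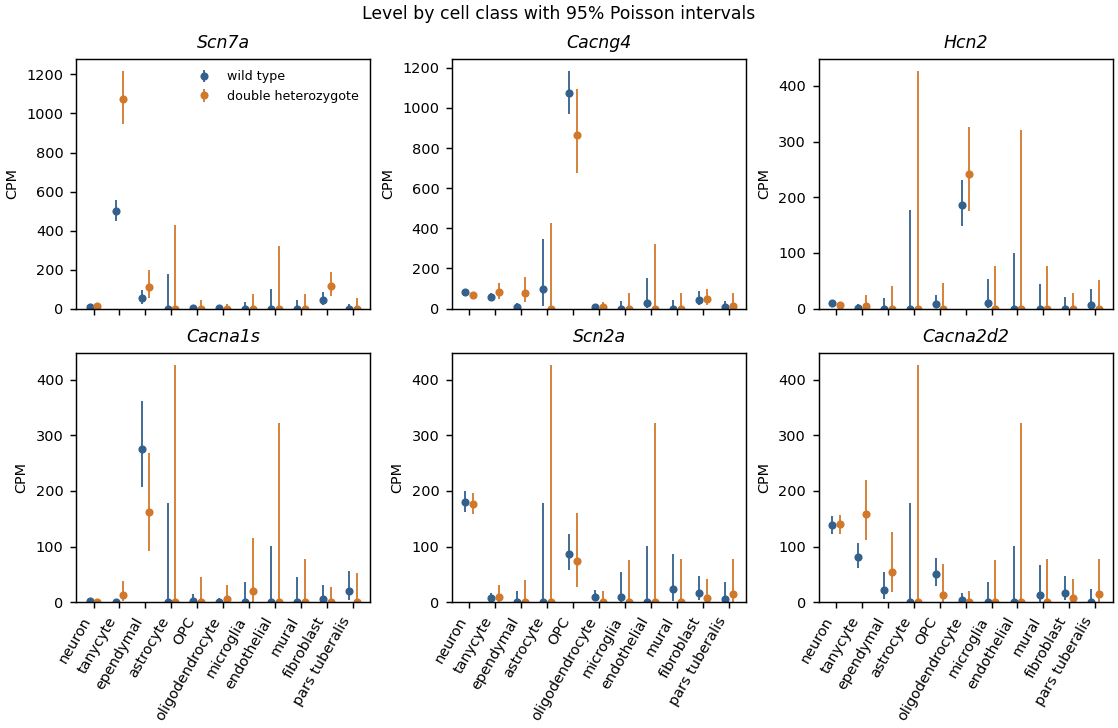
CPM of Scn7a, Cacng4, Hcn2, Cacna1s, Scn2a and Cacna2d2 in each cell class, with the wild-type library in blue and the double heterozygote in orange; bars are exact 95% Poisson intervals. Scn7a peaks in tanycytes (500 and 1076 CPM), Cacng4 in oligodendrocyte precursors, Hcn2 in oligodendrocytes and Cacna1s in ependymal cells, and the long bars of astrocytes and endothelial cells come from their few UMIs.

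The start-site sequences of 3 of these genes are set here beside that of Cacna2d1, a neuronal member rich in CG pairs and chosen after its values were seen, to show how widely CpG content varies in the family. Each line gives the 250 bases before the RefSeq start site on build GRCm38.p6, 5′ to 3′ on the gene's own strand, with every CG pair in capitals.

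Scn7a (chr2:66784911-66785160, minus strand): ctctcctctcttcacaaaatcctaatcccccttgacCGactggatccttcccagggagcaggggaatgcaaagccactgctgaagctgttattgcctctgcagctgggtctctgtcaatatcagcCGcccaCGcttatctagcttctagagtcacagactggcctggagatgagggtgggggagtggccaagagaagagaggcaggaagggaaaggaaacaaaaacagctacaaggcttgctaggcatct
Cacna1s (chr1:136052561-136052810, plus strand): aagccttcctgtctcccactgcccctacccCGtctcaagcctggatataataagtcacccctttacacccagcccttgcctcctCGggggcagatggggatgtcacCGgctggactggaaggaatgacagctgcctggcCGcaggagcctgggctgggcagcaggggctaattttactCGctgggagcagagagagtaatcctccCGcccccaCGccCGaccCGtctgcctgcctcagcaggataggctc
Hcn2 (chr10:79716384-79716633, plus strand): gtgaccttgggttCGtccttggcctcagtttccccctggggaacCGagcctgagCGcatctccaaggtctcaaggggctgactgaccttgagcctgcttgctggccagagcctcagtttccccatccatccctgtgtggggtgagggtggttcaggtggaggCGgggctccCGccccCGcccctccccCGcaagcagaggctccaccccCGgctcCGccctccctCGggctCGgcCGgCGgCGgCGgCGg
Cacna2d1 (chr5:15934441-15934690, plus strand): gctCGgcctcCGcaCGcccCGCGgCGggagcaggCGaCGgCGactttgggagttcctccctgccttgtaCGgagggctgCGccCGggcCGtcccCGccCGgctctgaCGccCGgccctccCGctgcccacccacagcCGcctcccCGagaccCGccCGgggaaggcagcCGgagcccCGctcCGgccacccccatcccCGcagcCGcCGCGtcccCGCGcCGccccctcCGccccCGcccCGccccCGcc

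Scn7a had 3 CG pairs, Cacna1s 9, Hcn2 16 and Cacna2d1 36, where the median over 32851 RefSeq windows of this kind was 6. RefSeq windows, each 250 bases before and 50 after a start, were matched for 30 of the 42 genes. Over those 300 bases Scn7a again had 3 CG pairs and Scn9a, its neighbour in the same sodium channel cluster on chromosome 2, had 9. The median over all 300-base windows was 7. Neuronal members lay on both sides of it, with 2 in Scn2b and 9 in Cacng3. TAATTA, the core letters of many homeodomain sites, was searched on both strands. It occurred in 5.29% of all 300-base windows and in none of those of the matched members. GTTGCC, letters found in sites of RFX factors, occurred on either strand in 12.5% of all windows and among the members in those of Cacna1e, Hcn4 and Scn2b. Such matches describe letters only.

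In neurons, the sodium channel pores Scn2a, Scn9a, Scn3a and Scn1a were all at least 6-fold above the level of other cells in both libraries. Scn2a, the main alpha subunit of early and unmyelinated axons, had 349 and 336 UMIs (180 and 176 CPM), 9.02-fold (6.64 to 12.5) and 16.9-fold (9.06 to 35.5) the level of other cells. Thinned to 1000 UMIs, 16.1% of 521 and 15.8% of 475 neurons had a UMI of it, against 0 of 165 and 0 of 80 oligodendrocytes, which by the same rule allow up to 1.82% and 3.75%. Without thinning, 28.5% and 29.5% of neurons had one, with medians of 1558.5 and 1770 UMIs per neuron and 1303 and 1136 per oligodendrocyte. Scn9a had 240 and 227 UMIs, Scn3a 235 and 193, and Scn1a 127 and 137. Scn8a, the pore concentrated at nodes and axon initial segments, was less bound to neurons, with 67 and 38 UMIs there (34.6 and 19.9 CPM) and 14 and 5 in pars tuberalis cells (89.7 and 70.4 CPM). Among the beta subunits, Scn2b had 146 and 116 UMIs in neurons and Scn3b 94 and 81; each was at least 4-fold higher in neurons than elsewhere in both libraries.

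Of the calcium pores, the presynaptic N and R types had the largest shares of their UMIs in neurons, 94.0% and 91.3%. Cacna1b, the N-type pore, had 87 and 85 UMIs in neurons against 10 and 1 elsewhere, Cacna1e, the R-type pore, 110 and 101 against 15 and 5, and Cacna1a, the P/Q pore, 114 and 101 against 41 and 13. The L-type pores were more widely spread. Cacna1d had 59 and 54 UMIs in neurons (30.5 and 28.3 CPM) and 5 and 7 in pars tuberalis cells (32.0 and 98.5 CPM), and Cacna1c had 28 and 14 in neurons. The T-type pore Cacna1g had 58 and 31 UMIs in neurons (29.99 and 16.3 CPM) but its highest class was fibroblasts, with 7 and 12 UMIs (37.9 and 90.4 CPM). Mural cells of vessels had 38 and 13 UMIs of the whole family, of which Cacna2d1 had 13 and 3 (156 and 62.4 CPM).

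Accessory subunits divided in the same way. Cacna2d1, Cacna2d2 and Cacna2d3 had 244 and 272, 267 and 266, and 94 and 93 UMIs in neurons. Cacng2, the TARP stargazin, had 179 and 147 of its 186 and 148 UMIs in neurons, and Cacng3 had all of its 24 and 22 there. Of the pacemaker genes, Hcn4 had 19 of 19 and 12 of 13 UMIs in neurons and Hcn3 32 of 40 and 21 of 23, unlike Hcn2. With at least 1 UMI of any of the 42 genes as the measure, 76.4% and 73.7% of neurons thinned to 1000 UMIs had one, against 31.5% and 40.0% of oligodendrocytes and 79.6% and 70.8% of precursors. Summed neuron markers were at 771 and 715 CPM in oligodendrocytes and 1396 and 989 CPM in precursors, and the part of free RNA in these shares was not tested.

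The comparison of genotypes was made within neurons, where 32 of the genes had at least 30 UMIs over both libraries. In the double heterozygote, 2 of 32, Scn7a among them, were at least 1.5-fold higher, against 6.91% of all genes. The log2 ratio of Scn7a in neurons, 0.64 (-0.44 to 1.77), was -0.45 with classes assigned cell by cell from the markers, and it passed 1.5-fold in 5 of 12 alternatives. Scn8a, Cacna1c, Cacna1g, Cacnb1, Cacnb3, Hcn3 and Hcn4 were at least 1.5-fold lower, 7 of 32, against 16.1% of all genes. Where the interval also had to leave out equality, 1 of 32 remained of the higher genes, not Scn7a (4.63% of all genes), and 4 of 32 remained of the lower, Scn8a, Cacna1c, Cacna1g and Cacnb3 (12.3% of all genes). These shares were close to those of all genes. The median log2 ratio of the 32 genes was -0.17, with 24 below 0, and that of all 11577 genes was -0.05, with 6303 below 0.

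Cacnb3, a beta subunit that carries alpha1 pores to the membrane, had 103 and 52 UMIs in neurons, or 53.3 and 27.3 CPM (log2 -0.96, -1.47 to -0.47). Its ratio ranged from -1.26 to -0.81 over the alternatives. The sum of the 4 beta subunits was 187 and 144 CPM, a ratio of 0.77 (0.66 to 0.91), and of these Cacnb4, with 144 and 138 UMIs, differed least. Cacna1g had a log2 ratio of -0.88 (-1.56 to -0.23), and the T-type pores together a ratio of 0.64 (0.44 to 0.93). Scn8a was at 34.6 and 19.9 CPM (log2 -0.80, -1.41 to -0.20) and Cacna1c at 14.5 and 7.35 CPM (log2 -0.98, -2.02 to -0.0048). When the comparison was kept to neuron cluster 0, the largest neuron cluster, the log2 ratio of Scn8a was -0.24 and that of Cacna1c -0.06, both under 1.5-fold.

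The sodium alpha subunits together were at 539 and 505 CPM (0.94, 0.86 to 1.02), the sodium beta subunits at 151 and 160 CPM (1.06, 0.90 to 1.24), the P/Q, N and R pores at 161 and 151 CPM (0.94, 0.79 to 1.10) and the alpha2delta subunits at 315 and 333 CPM (1.06, 0.94 to 1.18). The gamma subunits were at 263 and 218 CPM (0.83, 0.73 to 0.95), of which Cacng2, Cacng4 and Cacng7 made most, and the pacemaker channels at 58.4 and 43.0 CPM (0.74, 0.55 to 0.99). All members together stood at a ratio of 0.92 (0.87 to 0.96). The 2 libraries held different mixes of neurons, with 18 and 37 cells of the Agrp subcluster and 117 and 34 of a low-depth subcluster described further on. The neuron markers themselves were at 19530 and 16446 CPM in neurons, lower in the double heterozygote, and their part in the family's ratio was not tested. Within neuron cluster 0 alone the ratio of the summed genes was log2 0.021 and their median 0.0012, in place of -0.12 and -0.17 over all neurons. That cluster is itself mixed, led by Cartpt, Oxt, Pomc, Gal and Sst. The part of the neuron mix in the family's ratio was not tested.

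**Figure D3:**
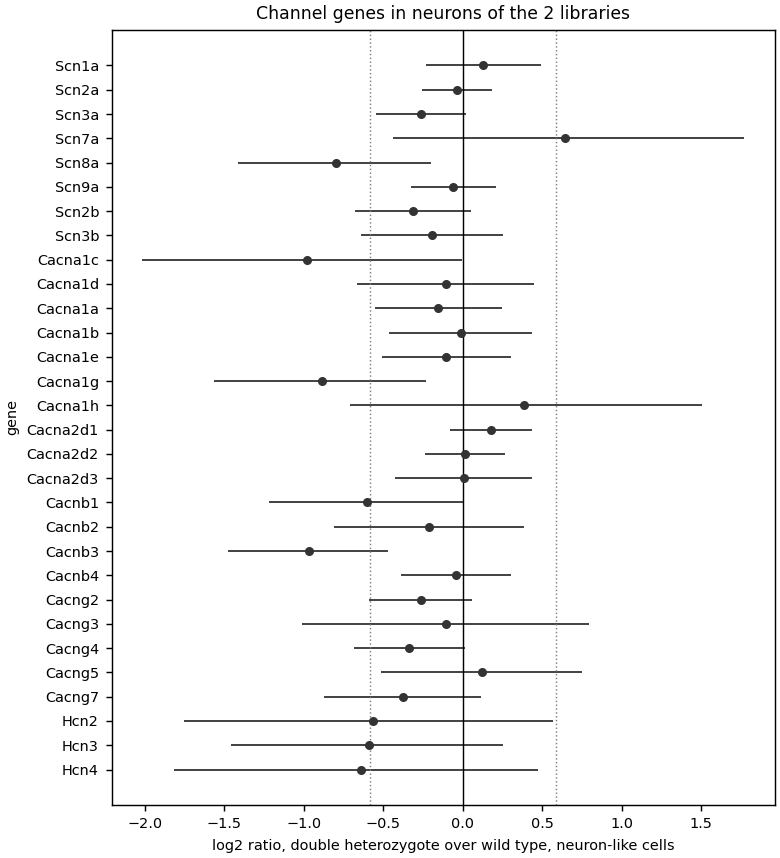
Log2 ratio of the level in double heterozygote neurons over wild-type neurons for 30 of the 32 genes with at least 30 UMIs in neurons; bars are exact 95% intervals of counting error, the solid line is equality and the dotted lines mark 1.5-fold. Cacnb3 (-0.96), Cacna1g (-0.88) and Scn8a (-0.80) lie to the left with bars that leave out 0, while Scn2a (-0.03) and Cacna2d2 (0.02) have narrow bars over it.

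Partner genes that bind, place or work beside these channels were also mostly neuronal, while their genotype ratios lay nearer equality than those of the channel genes. Of 29 with at least 30 UMIs, 16 were at least 2-fold higher in neurons in both libraries, against 12.1% of all genes. Of 28 with at least 30 UMIs in neurons, none was at least 1.5-fold higher in the double heterozygote, against 6.91% of all genes. Of the same 28, 1 was at least 1.5-fold lower, against 16.1% of all genes. The median log2 ratio of the 28 was 0.01, with 14 below 0, and that of all genes was -0.05. The 3 highest were Rims1, an active zone scaffold that binds calcium channels (72 and 106 UMIs, log2 0.58), Fgf12, a sodium channel-binding factor (125 and 175, log2 0.51), and Rem2, a GTPase that inhibits calcium channels (16 and 20, log2 0.34). The 3 lowest were Unc79, a subunit of the sodium leak channel complex (41 and 23, log2 -0.81), Fgf14, which binds sodium channels at the initial segment (81 and 58, log2 -0.46), and Slc8a1, a sodium and calcium exchanger (18 and 13, log2 -0.45). Pex5l, the accessory protein TRIP8b of pacemaker channels, had just 16.5% of its UMIs in neurons, and its highest class was oligodendrocytes, the same class as Hcn2.

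The larger differences lay between kinds of neurons. Neurons were split by the UMIs of their transmitter genes: 385 and 364 cells had Slc32a1, Gad1 or Gad2 and no Slc17a6 (GABA), and 151 and 113 had Slc17a6 and none of the other 3 (glutamate). A further 33 and 31 had both, and 259 and 198 neither, which at this depth leaves their type unknown. In both libraries, 7 of the 32 genes were at least 1.5-fold higher in glutamate than in GABA neurons, against 5.44% of all genes, and 3 of 32 were at least 1.5-fold lower, against 6.13%. The 7 were Cacna2d1, Cacng7, Cacna1c, Cacna1h, Cacnb2, Cacnb4 and Scn1a, and the 3 were Cacna2d3, Cacng5 and Hcn2. Hcn2 rested on 2 and 1 UMIs in glutamate neurons and Cacna1h on 4 and 3. The intervals of Hcn2, Cacna1h and Cacnb2 held equality in both libraries. Those of Cacna1c and Cacna2d3 held it in the wild-type library, and that of Scn1a in the double heterozygote. Of the 28 partner genes, 1 was higher and 2 were lower.

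Cacna2d1, an alpha2delta subunit that binds gabapentin, differed most. It was at 311 and 375 CPM in glutamate neurons, from 114 and 104 UMIs, and at 46.5 and 65.4 CPM in GABA neurons, from 54 and 80 UMIs. The ratio was 6.70 (4.81 to 9.44) in the wild-type and 5.72 (4.24 to 7.76) in the double heterozygote library, so the groups stood apart in both. Its relatives went the other way. Cacna2d3 was at 35.5 and 25.2 CPM in glutamate and 59.4 and 56.4 CPM in GABA neurons, 0.54-fold over both libraries (0.32 to 0.86), and Cacna2d2 was 0.72-fold (0.55 to 0.93). By library, Cacna2d3 was 0.60-fold (0.30 to 1.09) and 0.45-fold (0.17 to 0.97). Cacna2d2 was 0.88-fold (0.63 to 1.22) and 0.52-fold (0.32 to 0.81), so the wild-type intervals of both held equality. Among the TARPs, Cacng7 was at 81.9 and 57.6 CPM in glutamate and 35.3 and 27.0 CPM in GABA neurons (2.30-fold, 1.56 to 3.37). Cacng5 was the reverse, at 8.19 and 7.2 CPM in glutamate and 26.7 and 30.3 CPM in GABA neurons (0.27-fold, 0.09 to 0.67), and Cacng2 was nearly even (1.23-fold, 0.91 to 1.66). For the sodium pores the differences were smaller. With libraries summed, Scn2a was at 1.60-fold (1.32 to 1.93), Scn3a at 1.65-fold (1.29 to 2.09) and Scn1a at 1.58-fold (1.15 to 2.16) in favour of glutamate neurons, and Scn9a at 0.74-fold (0.55 to 0.98). In the double heterozygote library alone, Scn3a was at 1.25-fold (0.81 to 1.86) and Scn9a at 0.88-fold (0.57 to 1.31), against 1.93-fold (1.40 to 2.63) and 0.63-fold (0.42 to 0.94) in wild type.

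**Figure D4:**
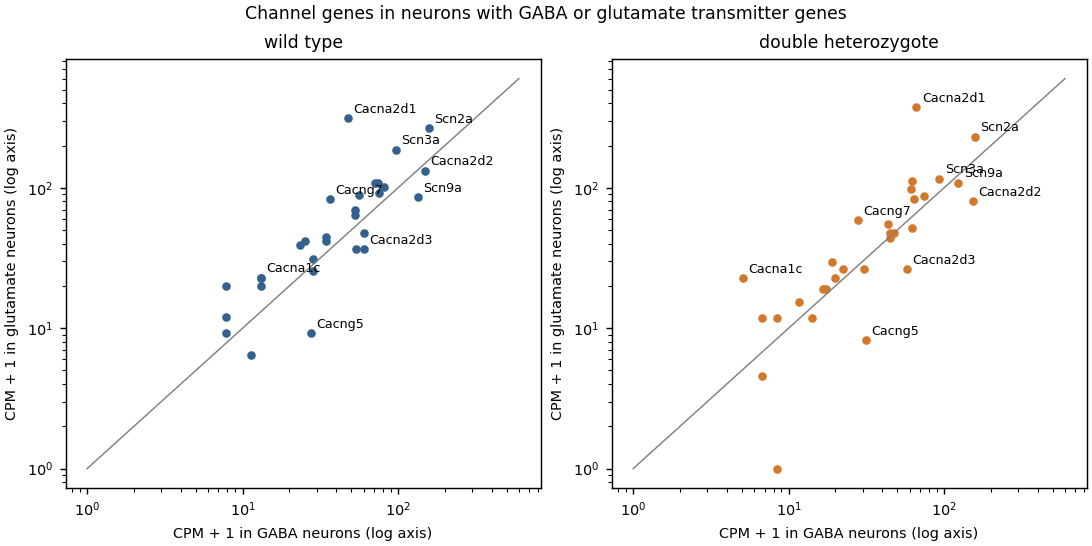
CPM + 1 in GABA neurons (horizontal, log axis) against glutamate neurons (vertical, log axis) for 30 of the 32 genes in the wild-type (left) and double heterozygote (right) library; the grey line is equality. Cacna2d1 lies far above the line in both panels (311 and 375 CPM in glutamate neurons), and Cacng5 and Cacna2d3 lie below it in both.

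Neurons were also clustered on their own into 10 subclusters, again without the channel genes, and named here by number and leading genes. Subcluster 7, led by Foxb1 and Nts, with 78.2% glutamate cells and no GABA cell, had the most Cacna2d1 of the 10 with libraries summed (419 CPM, 316 to 544), with 32 and 24 UMIs in 35 and 20 cells (377 and 490 CPM). It also had 478 CPM of Scn2a (368 to 611, libraries summed) and 194 CPM of Scn1a (127 to 285). Cacna2d3 had no UMI there in either library, whose exact upper limit is 27.6 CPM, while it stood at 87.5 CPM (58.2 to 127) in subcluster 3. Scn9a was low in subcluster 7, at 52.3 CPM (21.0 to 108) from 7 UMIs, all in the wild-type library. Its antisense partner Gm13629 was among the leading genes of this subcluster, with 12 and 8 UMIs; reads from these 2 genes cannot be told apart if the counting ignored strand.

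Subcluster 3, led by Vip, Rgs16, Prok2 and Nms, genes known from the suprachiasmatic nucleus, the neighbouring clock nucleus, had its own set. Scn1a had only 0 and 2 UMIs there (6.25 CPM, 0.76 to 22.6, libraries summed), against 50 and 51 UMIs (127 CPM, 103 to 154) in subcluster 0, led by Nrgn and Cplx1. Scn2a was present, at 169 CPM, and Scn9a at 131 CPM, so the low value was not shared by all sodium pores. Cacna2d2 was low in subcluster 3, with 11 and 3 UMIs (43.8 CPM, 23.9 to 73.4), where subcluster 7 had 284 CPM (201 to 390).

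The subclusters led by Pomc or Agrp, genes of feeding control, had Scn9a above its level in subclusters 0 and 7. It was not particular to them, since subcluster 3 held it as given above. In subcluster 5, described below, it was 1.46-fold its level in the other neurons, from 19 UMIs. Tac1, Trh and Ghrh were also among the leading genes of subcluster 2. Subcluster 2, led by Pomc and Cartpt, had 85 and 100 UMIs of Scn9a (144 and 149 CPM), and subcluster 6, led by Npy and Agrp, had 16 and 32 (163 and 137 CPM). Scn2a in these was at 131 and 96.8 CPM with libraries summed. Scn1a was at 53.1 and 27.2 CPM. The Agrp subcluster had the lowest Cacna2d1 of the 10, with 2 and 12 UMIs (42.3 CPM, 23.1 to 71.0), and its Cacng5 was at 48.4 CPM (27.7 to 78.6), the highest of the 10, from 6 and 10 UMIs.

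**Figure D5:**
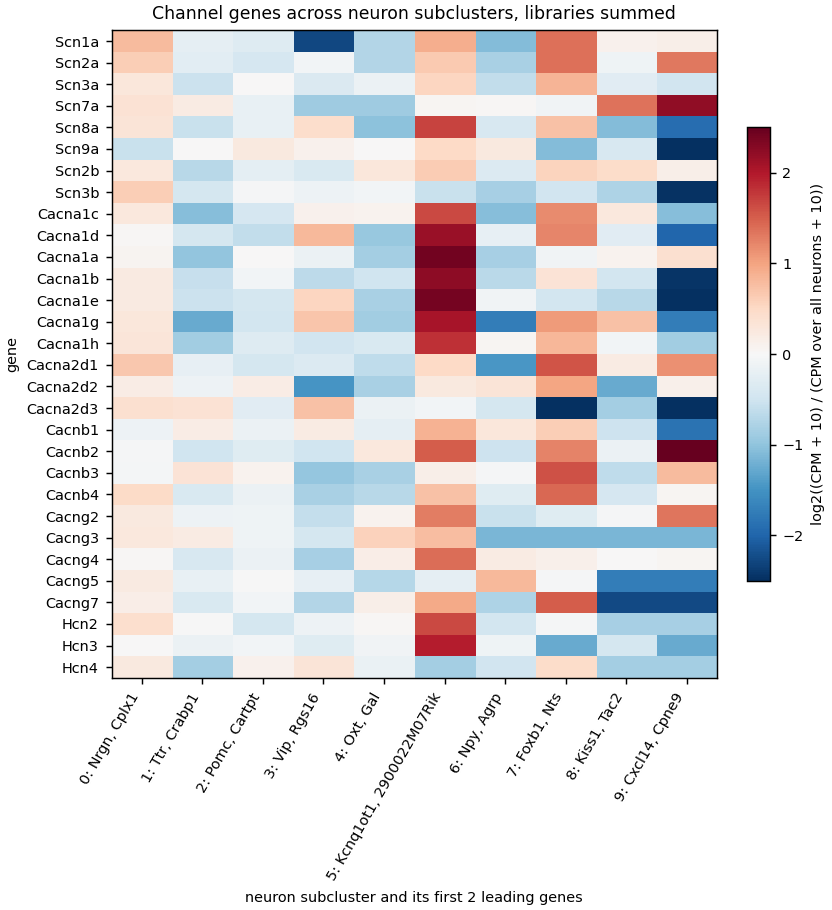
Level of 30 of the 32 genes (rows) in the 10 neuron subclusters (columns, with number and first leading genes), libraries summed, as log2 of (CPM + 10) over (CPM across all neurons + 10); red is above and blue below the level of all neurons. The column of subcluster 5 is red for most pore genes, the Foxb1 and Nts column is red for Cacna2d1 and blue for Cacna2d3, and the Vip column is blue for Scn1a; subcluster 9 rests on 22 cells.

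Subcluster 5 stood apart in another way. Its 117 and 34 cells were led by genes that include the nuclear RNAs Kcnq1ot1 and Malat1, had a median of 615 UMIs, and had a median of 8.18% mitochondrial UMIs against 1.53% in the other neurons. Of the 32 genes, 18 were at least 2-fold higher there than in the other neurons, against 21% of all genes, and the median fold was 2.24 over the 32 genes and 0.747 over all genes. Several calcium pores were among the most raised. Cacna1a was at 345 and 328 CPM (7.15-fold), Cacna1b at 218 and 374 CPM (6.41-fold) and Cacna1e at 299 and 468 CPM (7.08-fold). The largest fold was that of Cacna1h (7.94), but from 6 UMIs there and 26 in the other neurons, too few to rank it above these. Scn3b, Cacng5 and Cacna2d3 were not raised (0.60, 0.79 and 0.95-fold). Across the 32 genes, the fold had a Spearman correlation of 0.18 with the length of the gene, a description over genes that share these cells. The part of depth and mitochondrial share in these levels was not tested. Leaving this subcluster out left Cacna1c, Cacna1g, Cacnb3, Hcn4 and Scn8a at least 1.5-fold lower in double heterozygote neurons.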

How the data were processed

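The authors deposited 1 table of raw UMI counts per library, genes by cell barcodes. Per the submitters' processing notes, the tools were bcl2fastq, Picard, Seurat 3 and STAR 2.6.0b, and the build was mm10. No source used here gives the gene annotation or the strand and multimapping settings. The tables held 2800 and 1800 barcodes with 4426817 and 2974060 UMIs.

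Barcodes under 300 genes or over 20% mitochondrial UMIs were removed (395 and 316). Counts were embedded on 2000 variable genes and 30 principal components with 20 neighbours and clustered by Leiden at resolution 1 (scanpy 1.11.5, leidenalg 0.10.2, Python 3.11.15), leaving out the channel genes. Clusters were named by fixed marker lists; cluster 15, led by Cyp2f2 and keratin genes, stayed unnamed. Scrublet, at an expected 5% doublets, marked 17 cells (0.437%), which were kept; whether other doublets remained was not tested. UMIs were summed per class and library and given as CPM with exact Poisson intervals; ratios have exact conditional binomial intervals and shares exact Clopper-Pearson ones, all at 95% (scipy 1.17.1); beside shares of 0, the share that 3 cells would give is printed. The ratio code was tested on simulated data. A gene is described from 30 UMIs, and its highest class is taken among classes with at least 10 of its UMIs. For partner genes, the 3 highest and 3 lowest neuron ratios are named. Gene positions come from the mm10 annotation, and overlaps were checked there. Alternatives changed the scaling, filters, doublets, classes and thinning. The channel genes, partner genes and marker lists were chosen with earlier results of these data known. Scn10a and Cacna1f are not analysed here, and some of the counted genes are not reported here by name.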

Additional observations from a re-analysis of the deposited data

How the results depend on the processing

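The count of genes at least 2-fold higher in neurons in both libraries was 23 and ranged from 18 to 28 over 12 alternatives. The count higher in double heterozygote neurons went from 2 to 1 with at least 100 UMIs, with each cell classed by its own markers, without the cell holding the most UMIs of each gene, with only cells of at least 1000 UMIs, without neuron subcluster 5, in GABA neurons only and in neuron cluster 0 only. The count of lower genes went from 7 to 2 with at least 100 UMIs, to 2 in GABA neurons only and to 3 in neuron cluster 0 only; the first has fewer genes and the others fewer cells. In neuron cluster 0 the median log2 ratio was 0.0012 and that of the summed genes 0.021. Of neurons, 59.6% and 60% had at least 1 member's UMI when thinned to 500 UMIs, and 85.6% and 87.3% with no thinning. Of 437 values of single genes under an alternative, 431 moved by less than counting error and 6 moved more. In 44 the sign changed, all for genes whose interval holds equality; none changed for the 7 ratios whose interval leaves it out. One of the 6 was Scn7a in neurons, at log2 -0.45 in place of 0.64 with each cell classed by its own markers. The alternatives on subcluster 5, GABA neurons, neuron cluster 0 and the summed genes were chosen after seeing the data. No paired analysis was possible because each genotype has 1 pooled library and no shared replicate number. Depth limits genes with under 30 UMIs and the small astrocyte and endothelial classes.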
